A study of Homo sapiens with 33 samples.

Results

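The genes described here are 10 genes of the extrinsic apoptosis pathway: the death receptor genes FAS, TNFRSF10A and TNFRSF10B, the decoy receptor gene TNFRSF10D, the initiator caspase gene CASP8, its inhibitor CFLAR, and the inhibitor of apoptosis (IAP) genes XIAP, BIRC2, BIRC3 and BIRC6. They were taken by symbol from the deposited count table, which holds 59428 gene entries. No cut on a measured value was used, but the genes were chosen with earlier results of these data known. All 10 passed the filter on low counts, among 18911 genes tested with inhibitors and 16783 tested with knockouts.

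Death receptors sit in the plasma membrane and, when bound by their ligands, gather the adaptor FADD and procaspase-8 into a complex in which caspase-8 becomes active and starts apoptosis. The product of CFLAR, c-FLIP, resembles caspase-8 and takes its place in that complex. XIAP binds and inhibits executioner caspases, whereas cIAP1 (BIRC2) and cIAP2 (BIRC3) are ubiquitin ligases at the tumour necrosis factor receptor complex that steer its signal towards NF-kB, a transcription factor that also acts on several genes of this pathway.

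The series measured mRNA by sequencing of 3' ends (QuantSeq, FWD kit, in which each transcript gives reads near its poly(A) tail) after inhibition or knockout of CDK7 and CDK9, kinases that act on RNA polymerase II. The inhibitor part has 22 libraries of 2 triple-negative breast cancer cell lines, spelled MDA-MD-231 and MDA-MD-468 in the labels, both of wild-type genotype per the labels: 1 DMSO and 1 Parental library of each line at 0 h (the 4 control libraries), and libraries at 3, 6 and 12 h of SY200, of V50 and of both (SY200/V50). The knockout part has 11 libraries of MDA-MD-231: 1 Parental library at 0 h, and 2 libraries each, from 72 and 96 h, of cells with the empty vector and of the knockouts of CDK1 (CDK1 KO), CDK7 (CDK7 KO), CDK9 (CDK9 KO) and both of the last (CDK7/9 KO). The treatments are CDK7 and CDK9 inhibitors, but the labels do not tie SY200 or V50 to a kinase, nor give units for the numbers in these names. Whether a knockout is 1 clone or a pool of cells is not given either. Each line, condition and time has 1 library, so the tests take lines (inhibitors) or times (knockouts) as the repeats. Means over time count the libraries of a line at 3, 6 and 12 h as separate. A gene can thus pass although the lines do not agree. The errors given are standard errors of the fitted model. All control libraries were taken at 0 h, so treatment and time in culture cannot be told apart.

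The libraries held 16985219 to 22859779 counted reads. Markers of each line had a higher median in that line: the 8 markers chosen for MDA-MD-231 had 471 to 1358 CPM (counts per 10 to the sixth, of the scaled library) against 17 to 37.1 CPM in MDA-MD-468, and the 8 chosen for MDA-MD-468 had 159 to 225 CPM against 2.86 to 8 CPM in MDA-MD-231. Over all libraries, the summed level of the 8 immune cell markers was 1.84 to 20.2 CPM, mostly CD14 (up to 20.02) and LYZ (up to 9.35), while the B-cell marker MS4A1 was at 0 in all 33 libraries and the T-cell marker CD3E in 26. In the knockouts, CDK7 fell by 1.98 ± 0.14 on the log2 scale in CDK7 KO and CDK9 fell by 0.93 ± 0.11 in CDK9 KO (edgeR, adjusted p = 0.000421 and 0.00409). CDK1 fell by 1.46 ± 0.17 in CDK1 KO (adjusted p = 0.0137), but the Parental library had as little CDK1 as the knockouts (84.4 CPM against 81.7 and 84.3), while the empty vector libraries had 178 and 283. Tags at the 3' end need not cover an edited site, so these values check the labels only in part. The 2 empty vector libraries stand apart from each other, and the sizes of the called changes in the knockouts are also given below without 1 library at a time.

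BIRC3 and BIRC2 are neighbours on chromosome 11, in the same orientation, with 7.8 kb between the end of the first and the start of the second (GENCODE 29, GRCh38). BIRC3 spans chr11:102317450-102339403 and BIRC2 spans chr11:102347211-102378670. CFLAR (chr2:201116104-201176687) and CASP8 (chr2:201233443-201287711) are likewise on the same strand of chromosome 2, separated by 56.8 kb. Their promoters are shown because the members of each pair encode related proteins and their levels are set side by side below. Each window runs from 250 bases before to 50 after a RefSeq transcript start (GRCh38.p14, plus strand, 5′ to 3′). Capitals mark matches to the 10-base NF-kB consensus in BIRC3 and CFLAR, and to TGACGTCA, the cAMP response element, in BIRC2.
BIRC3 (chr11:102317234-102317533): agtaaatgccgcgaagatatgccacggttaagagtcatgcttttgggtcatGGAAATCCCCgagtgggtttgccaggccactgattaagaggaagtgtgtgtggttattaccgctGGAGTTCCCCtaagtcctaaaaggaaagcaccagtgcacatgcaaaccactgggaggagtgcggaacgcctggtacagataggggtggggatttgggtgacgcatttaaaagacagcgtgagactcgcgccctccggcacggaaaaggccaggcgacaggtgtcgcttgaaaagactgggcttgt
BIRC2 (chr11:102346964-102347263): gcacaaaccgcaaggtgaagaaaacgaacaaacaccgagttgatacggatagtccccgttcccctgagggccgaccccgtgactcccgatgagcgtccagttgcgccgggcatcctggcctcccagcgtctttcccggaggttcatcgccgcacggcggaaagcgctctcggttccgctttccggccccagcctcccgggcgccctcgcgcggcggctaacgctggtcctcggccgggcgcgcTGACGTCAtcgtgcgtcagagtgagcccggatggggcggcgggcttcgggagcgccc
CFLAR (chr2:201118466-201118765): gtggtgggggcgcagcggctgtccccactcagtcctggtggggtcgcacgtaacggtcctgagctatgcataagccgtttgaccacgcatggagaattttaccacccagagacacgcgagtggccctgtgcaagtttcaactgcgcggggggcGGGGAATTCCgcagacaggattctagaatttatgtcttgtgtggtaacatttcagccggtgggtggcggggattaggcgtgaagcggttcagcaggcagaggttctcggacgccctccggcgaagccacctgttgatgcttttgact
CASP8 (chr2:201233213-201233512): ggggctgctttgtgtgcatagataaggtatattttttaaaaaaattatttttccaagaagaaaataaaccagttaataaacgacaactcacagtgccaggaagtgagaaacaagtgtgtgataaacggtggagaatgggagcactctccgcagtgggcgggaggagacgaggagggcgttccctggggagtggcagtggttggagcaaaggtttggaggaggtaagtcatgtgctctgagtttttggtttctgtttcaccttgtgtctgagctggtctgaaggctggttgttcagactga

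The BIRC3 window holds 2 matches to the NF-kB consensus, both read on the minus strand, the CFLAR window 1 on the plus strand, and the BIRC6 window 1 that reads on both strands. The motifs searched did not overlap each other in any of these windows. The windows of BIRC2, CASP8, FAS and XIAP hold 0. Of all 35116 windows of this length, 11.3% hold such a match on either strand. TGACGTCA was found in the BIRC2 window and in 1.85% of all windows, and the TATA box sequence TATAAA in none of these 7 windows against 11.5% of all. GC content was 53.3% in BIRC3 and 68.7% in BIRC2, beside a median of 58.7% over all windows. The CFLAR window starts from a transcript whose start lies 2612 bases from the 5' end of the gene in GENCODE. TNFRSF10A, TNFRSF10B and TNFRSF10D lie on chromosome 8 and have no window here. FAS is at chr10:88990582-89015785, XIAP at chrX:123859724-123913979 and BIRC6 at chr2:32357028-32618899, all on the plus strand.

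Without inhibitor, the largest log2 differences between the lines among the 10 genes were those of TNFRSF10D and TNFRSF10B. TNFRSF10D, which encodes DcR2, a receptor that binds the ligand TRAIL without a working death domain, had 39.6 (DMSO) and 52.1 (Parental) CPM in MDA-MD-231 and 4.45 and 4.34 CPM in MDA-MD-468. TNFRSF10B, which encodes the TRAIL receptor DR5, had 152 and 130 CPM against 33.8 and 32.6 CPM. In both genes each MDA-MD-231 control was far above each MDA-MD-468 control. On the log2 scale the difference of MDA-MD-468 from MDA-MD-231 was -3.38 ± 0.38 for TNFRSF10D (edgeR quasi-likelihood test, Benjamini-Hochberg adjusted p = 3.5e-06) and -2.09 ± 0.18 for TNFRSF10B (adjusted p = 1.7e-07).

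In all, 7 of the 10 genes differed between the lines' controls (adjusted p under 0.05), where 53.8% of all genes tested did (28.8% higher and 25% lower in MDA-MD-468). FAS, the receptor of FAS ligand, had 6.31 and 5.29 CPM in MDA-MD-231 and 2.85 and 2.15 CPM in MDA-MD-468 (log2 difference -1.21 ± 0.34, adjusted p = 0.0075). TNFRSF10A, which encodes the TRAIL receptor DR4, had 29.2 and 37.5 CPM against 18.5 and 19.7 CPM (-0.80 ± 0.29, adjusted p = 0.028). BIRC2 was also lower in MDA-MD-468 (-0.70 ± 0.18, adjusted p = 0.0043). Higher in MDA-MD-468 were CFLAR (0.77 ± 0.26, adjusted p = 0.021) and BIRC6, a giant IAP that is also a ubiquitin-conjugating enzyme (1.06 ± 0.23, adjusted p = 0.0013). CASP8 (0.11 ± 0.23), XIAP (0.42 ± 0.18) and BIRC3 (-0.46 ± 0.28) did not pass (adjusted p = 0.70, 0.065 and 0.17, edgeR). With DMSO alone as the control, 1 library a line, only TNFRSF10B and TNFRSF10D still passed. Without 1 library the call was lost for CFLAR (MDA-MD-231 DMSO, MDA-MD-231 Parental or MDA-MD-468 Parental), TNFRSF10A (MDA-MD-231 Parental or either MDA-MD-468 control) and FAS (MDA-MD-468 Parental), with highest adjusted p of 0.081, 0.18 and 0.082.

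The combination SY200/V50 lowered most of these mRNAs. As a mean over 3, 6 and 12 h, 8 of the 10 passed the test against control, 1 higher and 7 lower, where 48.2% of all genes passed (24% higher and 24.2% lower). SY200 alone gave 2 of 10, 1 in each direction, where 1.98% of all genes passed (0.968% higher and 1.02% lower). V50 alone gave 3 of 10, 1 higher and 2 lower, where 22.3% of all genes passed (10.4% higher and 11.9% lower). The median log2 change over the 10 genes was -0.11 with SY200, -0.20 with V50 and -0.62 with SY200/V50, beside -0.01, 0.00 and 0.09 over all genes. The 3 comparisons share the same 4 control libraries. In these bulk libraries, fewer cells that express a gene and less of its RNA per cell cannot be told apart.

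**Figure D1:**
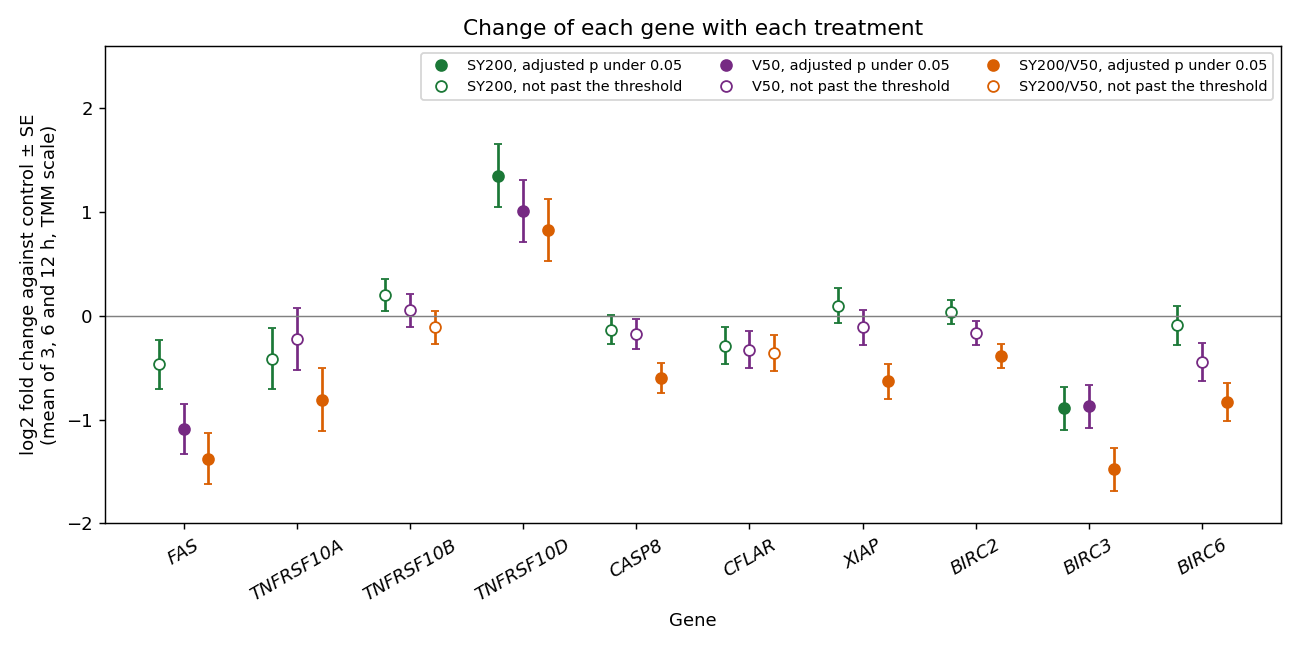
Log2 fold change against control of each of the 10 genes with SY200, V50 and SY200/V50 (y axis, mean of 3, 6 and 12 h; error bars are the standard error of the edgeR fit on 22 libraries; filled points have an adjusted p under 0.05). TNFRSF10D is the only filled point above 0, at 1.35, 1.01 and 0.83, and BIRC3 is filled and below 0 with each treatment.

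These changes are relative to the bulk of mRNAs, since the scaling used (TMM) sets the bulk to no change. The 13 mitochondrially encoded mRNAs, which a separate mitochondrial polymerase makes, rose beside them, by a median of 0.42, 0.89 and 1.38 on the log2 scale with SY200, V50 and SY200/V50, and their share of all counts ran from 2.17% to 13.5% in the inhibitor libraries. Scaled to these mRNAs instead, the median change over all genes was -0.44, -0.92 and -1.33, and 7, 9 and 9 of the 10 genes passed, where 28%, 75.5% and 83.7% of all genes did, nearly all lower. On that scale TNFRSF10D still passed above control with SY200 (0.89 ± 0.32, adjusted p = 0.042), was at 0.06 ± 0.31 with V50 (adjusted p = 0.88), and turned negative with SY200/V50 (-0.64 ± 0.31, adjusted p = 0.060). All of the other 9 genes were below 0 with each treatment on that scale. TNFRSF10B, at 0.05 with V50 on the TMM scale, was at -0.88 ± 0.19 there (adjusted p = 0.00036), and BIRC2, at 0.04 with SY200, was at -0.39 ± 0.14 (adjusted p = 0.046). With SY200, TNFRSF10B and XIAP, which passed on neither scale, went from 0.20 and 0.10 to -0.24 and -0.33. A change of scaling moves all genes of a library together.

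**Figure D2:**
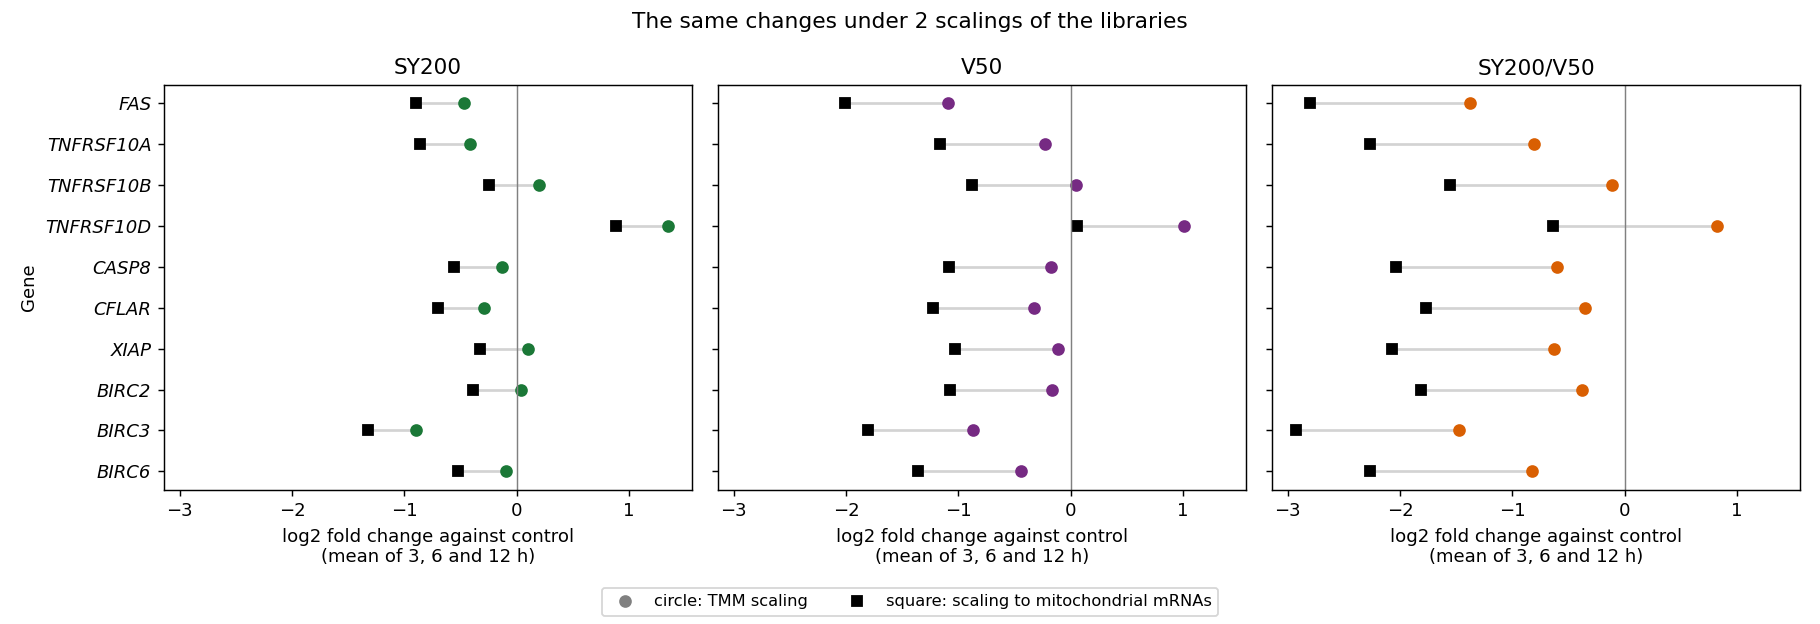
Log2 fold change against control (x axis, mean of 3, 6 and 12 h) of each of the 10 genes under TMM scaling (circles) and scaling to the 13 mitochondrially encoded mRNAs (squares), in 1 panel a treatment. The 2 marks of a gene are further apart with SY200/V50 than with SY200, and TNFRSF10D with SY200/V50 moves from 0.83 to -0.64.

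FAS was low in every library, and in each line its lowest library was SY200/V50 at 12 h. In MDA-MD-231 it had 6.31 and 5.29 CPM in the controls, 3.52, 6.70 and 6.49 CPM at 3, 6 and 12 h of SY200, 4.02, 2.61 and 4.4 CPM with V50, and 3.72, 2.89 and 2.23 CPM with SY200/V50. In MDA-MD-468 the controls had 2.85 and 2.15 CPM, SY200 1.33, 1.35 and 1.52 CPM, V50 1.08, 0.645 and 0.899 CPM, and SY200/V50 1.58, 0.483 and 0.394 CPM. All 12 libraries with V50 or SY200/V50 lay below both controls of their line, and with SY200 only 4 of 6 did. FAS fell by 1.09 ± 0.24 on the log2 scale with V50 and by 1.38 ± 0.25 with SY200/V50, a 2.13-fold and 2.59-fold lower level (edgeR, adjusted p = 0.0046 and 0.00022). With SY200 its change was -0.47 ± 0.24 (adjusted p = 0.33). Its counts ran from 158 reads down to 6, so the lowest values rest on few reads. Without any 1 of the 22 libraries both calls held.

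The TRAIL receptors are given by line. TNFRSF10A had 29.2 and 37.5 CPM in the MDA-MD-231 controls and 42.8, 31.1 and 31.8 CPM at 3, 6 and 12 h of SY200/V50. In MDA-MD-468 it had 18.5 and 19.7 CPM in the controls and 6.96, 4.72 and 5.12 CPM with SY200/V50. All 3 treated libraries were thus under the controls in MDA-MD-468, and 0 of 3 in MDA-MD-231. Over both lines TNFRSF10A fell by 0.81 ± 0.30 with SY200/V50 (edgeR, adjusted p = 0.035), but not without MDA-MD-468 DMSO, Parental, SY200/V50 at 3 h or SY200/V50 at 6 h (adjusted p up to 0.12), nor with DMSO alone as the control (-0.75, adjusted p = 0.12). With the single agents TNFRSF10A was low at 3 and 6 h in MDA-MD-468 (9.44 and 11.2 CPM with SY200, 9.21 and 8.97 CPM with V50) and near or above the controls at 12 h (18.9 and 23.3 CPM).

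TNFRSF10B did not pass over both lines with any treatment (log2 change 0.20 ± 0.16, 0.05 ± 0.16 and -0.11 ± 0.16; edgeR, adjusted p = 0.55, 0.84 and 0.58). In MDA-MD-231 all 9 treated libraries were above both controls, at 162, 196 and 204 CPM with SY200, 158, 159 and 211 CPM with V50 and 156, 174 and 209 CPM with SY200/V50, against 152 and 130 CPM. In MDA-MD-468 SY200/V50 gave 25.4, 20.7 and 20.5 CPM against 33.8 and 32.6 CPM in the controls. The 2 lines thus lay on opposite sides of their controls with SY200/V50. RHOBTB2, on the opposite strand, reaches within 1 kb of the 3' end of TNFRSF10B and had 187 to 1205 counts, and as the strand setting of the counting is not given, reads of one may be counted for the other.

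TNFRSF10D was the 1 gene of the 10 that passed as higher than control over both lines, on the TMM scale. In MDA-MD-231, where its controls had 39.6 and 52.1 CPM, it had 128, 249 and 210 CPM at 3, 6 and 12 h of SY200, 73.3, 134 and 234 CPM with V50, and 80.2, 132 and 178 CPM with SY200/V50. In MDA-MD-468, with 4.45 and 4.34 CPM in the controls, it had 6.21, 4.15 and 10.1 CPM with SY200, 4.17, 5.86 and 10.3 CPM with V50, and 5.63, 4.94 and 4 CPM with SY200/V50. Every treated MDA-MD-231 library was above both controls, as were 2 of 3 MDA-MD-468 libraries with each treatment. The log2 changes were 1.35 ± 0.30, 1.01 ± 0.30 and 0.83 ± 0.30 (edgeR, adjusted p = 0.031, 0.023 and 0.030).

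All 3 calls of TNFRSF10D depended on the libraries used. With DMSO alone as the control, 1 library a line, the changes were 1.40, 1.06 and 0.87 and none passed (adjusted p = 0.17, 0.076 and 0.088), and with no filter on low counts the SY200/V50 call was lost as well (0.79, adjusted p = 0.060). The SY200 call was lost without either MDA-MD-231 control, MDA-MD-468 Parental, any MDA-MD-231 SY200 library, or MDA-MD-468 SY200 at 3 or 12 h (log2 change 1 to 1.55, adjusted p up to 0.10). The V50 call was lost without either MDA-MD-231 control, MDA-MD-231 V50 at 6 or 12 h, or MDA-MD-468 V50 at 3 h (TNFRSF10D at 0.75 to 1.19, adjusted p up to 0.11). The SY200/V50 call was lost without either MDA-MD-231 control, MDA-MD-231 SY200/V50 at 6 or 12 h, or MDA-MD-468 SY200/V50 at 3 h (0.56 to 1, adjusted p up to 0.15).

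CASP8 fell with the combination. In MDA-MD-231 it had 24.1 and 24.7 CPM in the controls and 21.4, 17.9 and 13.2 CPM at 3, 6 and 12 h of SY200/V50, and in MDA-MD-468 24.0 and 28.7 CPM against 21.4, 13.4 and 14.7 CPM. All 6 treated libraries were below both controls of their line. The log2 change was -0.60 ± 0.14 (edgeR, adjusted p = 0.0023), a 1.52-fold lower level, and the call held without any 1 of the 22 libraries. With SY200 (-0.13 ± 0.14, adjusted p = 0.69) and V50 (-0.17 ± 0.14, adjusted p = 0.41) CASP8 did not pass.

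CFLAR did not pass as a mean over time with any treatment (-0.29 ± 0.18, -0.33 ± 0.18 and -0.36 ± 0.18; edgeR, adjusted p = 0.43, 0.19 and 0.10). In MDA-MD-231 all 9 treated libraries were below the controls of 25.8 and 28.0 CPM, the lowest of them V50 at 12 h with 10.7 CPM. In MDA-MD-468, with 43.7 and 48.2 CPM in the controls, SY200 gave 50.8, 50.1 and 28.5 CPM and SY200/V50 44.7, 42.4 and 31.2 CPM. The ratio of CFLAR to CASP8 tags within a library, which no scaling between libraries changes, was 1.07 and 1.13 in the MDA-MD-231 controls. There it was 0.902, 0.938 and 0.757 at 3, 6 and 12 h of SY200 and 0.756, 1.15 and 0.393 with V50. With SY200/V50 it was 0.954, 1.19 and 1.29 in that line, the value at 3 h being below both controls. In MDA-MD-468 it was 1.82 and 1.68 in the controls, and 2.09, 3.16 and 2.13 with SY200/V50. V50 alone gave 2.27, 2.38 and 1.84 in that line, also above both controls. SY200 alone gave 2.77 at 3 h, was above both controls at 6 h too, and was at 1.09 at 12 h. Tag counts of 2 genes need not be on 1 scale, so the ratio is read only between libraries.

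Of the 4 IAP genes, BIRC3 had the largest log2 change with SY200/V50. It had 28.4 and 25.2 CPM in the MDA-MD-231 controls, 16.5, 23.3 and 16.6 CPM with SY200, 16.2, 18.2 and 30.3 CPM with V50, and 13.4, 13.3 and 10.1 CPM with SY200/V50. In MDA-MD-468 it had 15.2 (DMSO) and 23.7 (Parental) CPM in the controls, 6.58, 9.74 and 9.38 CPM with SY200, 8.28, 5.75 and 8.78 CPM with V50, and 6.96, 4.67 and 5.71 CPM with SY200/V50. All libraries with SY200 and SY200/V50 were below both controls, and with V50 all but MDA-MD-231 at 12 h, which was above. BIRC3 fell by 0.89 ± 0.21 with SY200, 0.87 ± 0.21 with V50 and 1.48 ± 0.21 with SY200/V50, the last a 2.78-fold lower level (edgeR, adjusted p = 0.035, 0.0070 and 2.5e-05). The SY200 call of BIRC3 was lost without either MDA-MD-468 control or any 1 of the 6 SY200 libraries (adjusted p up to 0.14), and the calls with V50 and SY200/V50 held without any 1 library. With DMSO alone as the control, SY200 left 0 of the 10 genes past the threshold (edgeR), and 28 of all genes, with 2681 genes at an unadjusted p under 0.05.

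BIRC2, the neighbour of BIRC3, had a smaller log2 change, and the difference between the genes was not tested. Its MDA-MD-231 controls had 107 and 111 CPM, and SY200/V50 gave 80.6, 93.6 and 66.4 CPM, while SY200 gave 87.0, 128 and 122 CPM. In MDA-MD-468 the controls had 69.3 and 64.9 CPM and SY200/V50 gave 53.6, 48.3 and 59.4 CPM. All 6 SY200/V50 libraries were below both controls (log2 change -0.38 ± 0.12, edgeR, adjusted p = 0.012). The ratio of BIRC2 to BIRC3 tags was 3.77 and 4.42 in the MDA-MD-231 controls and 6.03, 7.05 and 6.58 with SY200/V50. In MDA-MD-468 it was 4.56 and 2.75 in the controls and 7.70, 10.3 and 10.4 with SY200/V50. In each line the ratio with SY200/V50 exceeded both control values at every time. So did that with SY200 alone, at 5.27, 5.52 and 7.35 in MDA-MD-231 and 8.73, 7.01 and 9.03 in MDA-MD-468. With V50 alone it was 5.28, 5.44 and 4.065 in MDA-MD-231, the last between the controls. In MDA-MD-468 it was 6.30, 9.59 and 7.48 with V50, above both controls.

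XIAP fell with the combination, to 44.7, 47.2 and 27.6 CPM at 3, 6 and 12 h in MDA-MD-231 (controls 58.3 and 52.2) and 58.1, 42.9 and 34.3 CPM in MDA-MD-468 (controls 76.0 and 71.9). All 6 libraries were below both controls of their line (log2 change -0.63 ± 0.17, edgeR, adjusted p = 0.0051). With SY200 alone the lines lay on opposite sides of their controls: XIAP had 60.7, 86.0 and 90.2 CPM in MDA-MD-231 and 55.7, 57.7 and 62.3 CPM in MDA-MD-468. The test of that difference between lines gave -0.83 ± 0.24, with an adjusted p of 0.68 and an unadjusted p of 0.0031 (edgeR).

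BIRC6 fell from 108 and 95.1 CPM in the MDA-MD-231 controls to 85.8, 71.0 and 38.3 CPM with SY200/V50. In MDA-MD-468 it fell from 185 and 236 CPM to 155, 101 and 85.7 CPM. In both lines each later library was lower than the one before, and all 6 were below both controls. The log2 change was -0.83 ± 0.18, a 1.78-fold lower level (edgeR, adjusted p = 0.0013). BIRC6 with V50 alone was at -0.44 ± 0.18 (edgeR, adjusted p = 0.094). With SY200 alone it was above both MDA-MD-231 controls at 3, 6 and 12 h, at 1.16, 1.26 and 1.31 times their mean. In MDA-MD-468 it was at 0.93, 0.67 and 0.51 times the control mean, below both controls at 6 and 12 h. The test of that difference between lines did not pass after adjustment. The SY200/V50 calls of XIAP, BIRC2 and BIRC6 held without any 1 of the 22 libraries.

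**Figure D3:**
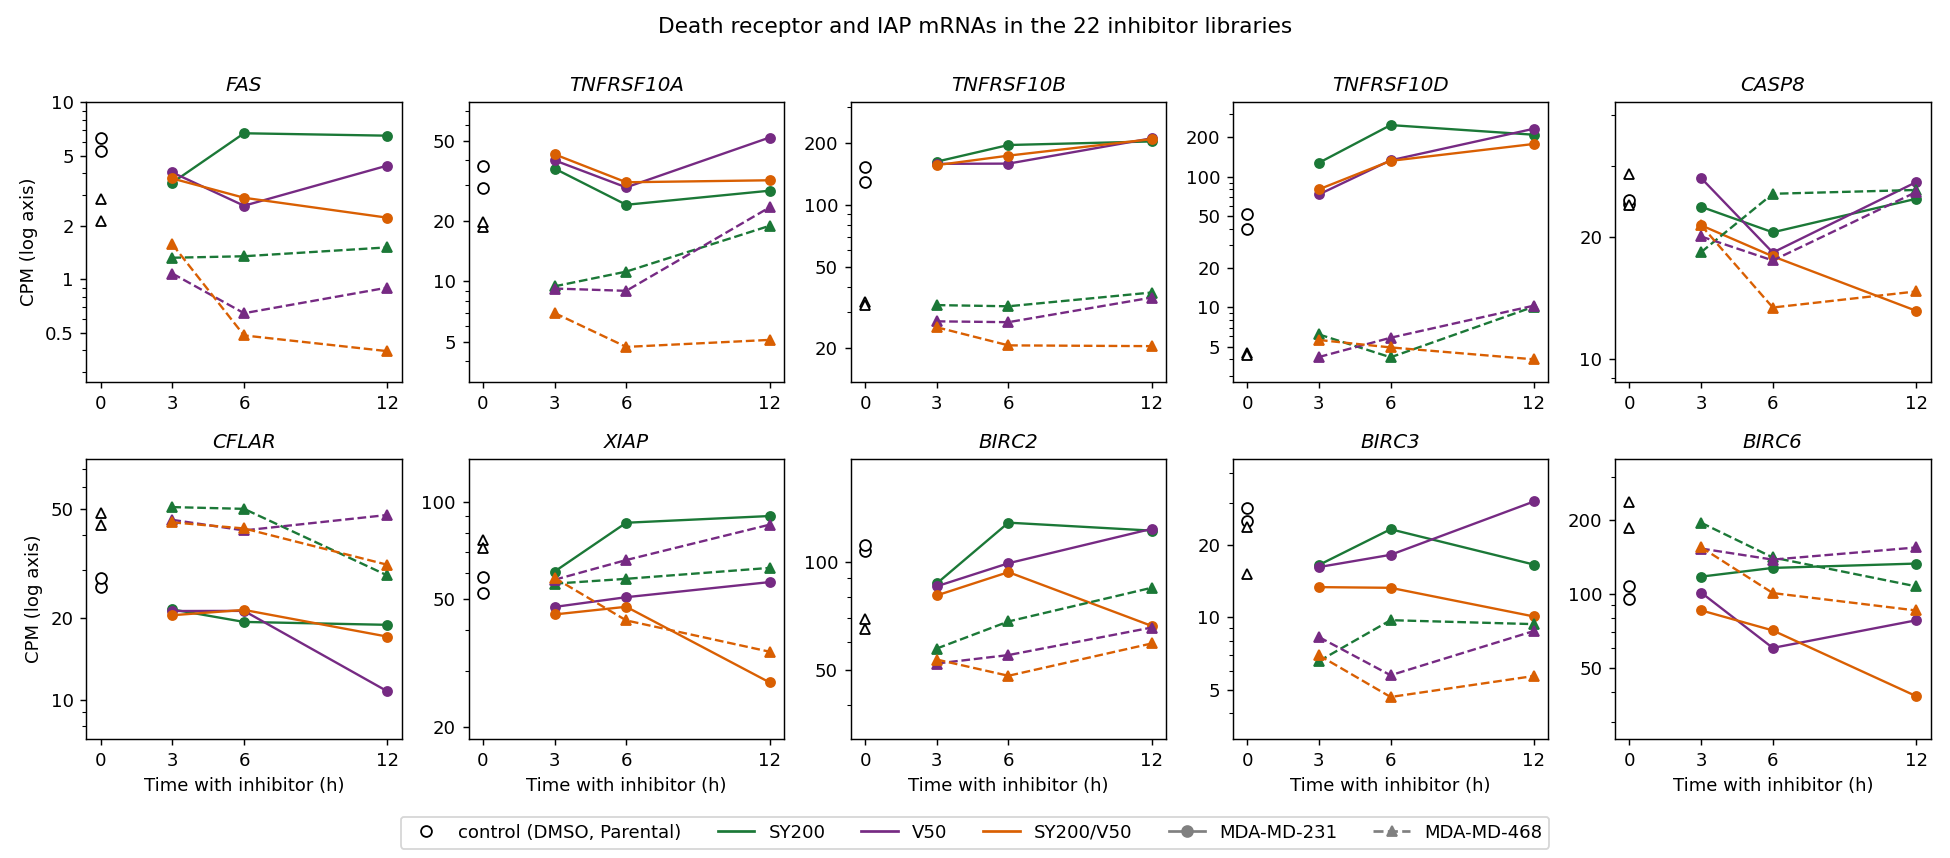
Level of each of the 10 genes (y axis, CPM on a log axis) against time with inhibitor (x axis, h) in the 22 inhibitor libraries, 1 library a point; open black marks at 0 h are the DMSO and Parental controls, colours are treatments, circles with full lines are MDA-MD-231 and triangles with broken lines MDA-MD-468. TNFRSF10D climbs to between 178 and 234 CPM by 12 h in MDA-MD-231, and BIRC6 with SY200/V50 drops to 38.3 and 85.7 CPM in the 2 lines.

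Counted over libraries, 6 of the 10 genes (FAS, CASP8, XIAP, BIRC2, BIRC3 and BIRC6) had all 6 SY200/V50 libraries below both controls of their own line, where 15.7% of all genes did. With SY200 this held for BIRC3 alone, where 3.35% of all genes did, and with V50 for FAS alone, where 5.09% did. For 0 of the 10 genes were all 6 libraries of a treatment above both controls, where 4.46%, 8.8% and 16% of all genes were with SY200, V50 and SY200/V50.

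Over time, the number of these genes past the threshold with SY200/V50 was 1 of 10 at 3 h, 4 at 6 h and 8 at 12 h, where 7.54%, 34.7% and 49.6% of all genes passed. Of all genes 1.88%, 17.3% and 25.9% were higher and 5.66%, 17.5% and 23.7% lower at these times. BIRC3 was the 1 at 3 h, at -1.27 ± 0.30, and was at -1.54 ± 0.30 at 6 h and -1.62 ± 0.31 at 12 h (edgeR, adjusted p = 0.015, 0.0011 and 0.00037). FAS was at -0.66 ± 0.33, -1.57 ± 0.36 and -1.90 ± 0.38 (adjusted p = 0.24, 0.0030 and 0.00053), and BIRC6 at -0.35 ± 0.25, -0.79 ± 0.26 and -1.34 ± 0.27 (adjusted p = 0.43, 0.024 and 0.00054). CASP8 passed at 6 and 12 h (-0.70 ± 0.20 and -0.86 ± 0.20, adjusted p = 0.013 and 0.0021) and XIAP only at 12 h (-1.06 ± 0.24, adjusted p = 0.0015). BIRC2 (-0.42 ± 0.16, adjusted p = 0.036), CFLAR (-0.61 ± 0.25, adjusted p = 0.046) and TNFRSF10D (1.05 ± 0.38, adjusted p = 0.028) also passed at 12 h.

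Some of these calls rest on 1 library. At 12 h, BIRC2 was lost without MDA-MD-231 SY200/V50 at 12 h (-0.17, adjusted p = 0.51) or MDA-MD-468 DMSO, and TNFRSF10D without MDA-MD-231 SY200/V50 at 12 h (0.32, adjusted p = 0.68) or either MDA-MD-231 control. CFLAR was lost without either MDA-MD-231 control, MDA-MD-231 V50 at 6 h or any 1 of the 6 SY200/V50 libraries (adjusted p up to 0.11). At 6 h, CASP8 and FAS were lost without MDA-MD-468 SY200/V50 at 6 h (adjusted p = 0.19 and 0.054), and BIRC6 without either 6 h library or MDA-MD-468 Parental (adjusted p up to 0.19). At 3 h, BIRC3 was lost without either 3 h library (adjusted p up to 0.18).

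Some of the calls also depended on the method. BIRC6 at 6 h was lost with DMSO alone as the control. At 12 h, BIRC2 was lost with DESeq2's size factors, with DESeq2 and with DMSO alone as the control (-0.36, -0.36 and -0.46; adjusted p = 0.072, 0.054 and 0.062). CFLAR was lost at 12 h with DESeq2's size factors, with no filter and with DMSO alone (-0.56, -0.66 and -0.57; adjusted p = 0.060, 0.061 and 0.12). TNFRSF10D was lost at 12 h with no filter and with DMSO alone (1.01 and 1.09; adjusted p = 0.054 and 0.066), and with scaling to mitochondrial mRNAs it passed in the other direction (-0.98, edgeR, adjusted p = 0.036).

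Tested directly, 12 h against 3 h of SY200/V50 gave 2 of 10 genes, both lower, where 18.3% of all genes passed (9.57% higher and 8.73% lower). BIRC6 fell further by 0.99 ± 0.29 (edgeR, adjusted p = 0.026), a call lost without either MDA-MD-231 library of the contrast or MDA-MD-468 at 3 h (adjusted p up to 0.20). FAS fell further by 1.24 ± 0.42 (adjusted p = 0.047), a call lost without any library other than MDA-MD-231 Parental, MDA-MD-468 DMSO and MDA-MD-468 SY200 at 6 h (adjusted p up to 0.25).

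With V50 alone, FAS and BIRC3 passed at 6 h (-1.53 ± 0.35 and -1.15 ± 0.30; edgeR, adjusted p = 0.0062 and 0.011), where 23.4% of all genes passed (11.9% higher and 11.5% lower), and at 12 h only TNFRSF10D did (1.78 ± 0.37, adjusted p = 0.0048), where 15.2% did (8.01% higher and 7.2% lower). FAS was lost without MDA-MD-231 V50 at 6 h (adjusted p = 0.098), BIRC3 without either V50 library at 6 h (adjusted p up to 0.13) and TNFRSF10D without MDA-MD-231 V50 at 12 h (adjusted p = 0.074) or with scaling to mitochondrial mRNAs (0.76, adjusted p = 0.098). TNFRSF10D also differed between 12 h and 3 h of V50 (1.51 ± 0.44, adjusted p = 0.034), the 1 gene of 10 where 12.8% of all genes passed (7.97% higher and 4.84% lower), and not without any 1 of the 4 libraries of the contrast (adjusted p up to 0.25), with scaling to mitochondrial mRNAs (1.29, adjusted p = 0.076) or with no filter (1.51, adjusted p = 0.052). At 3 h of V50, 0 of 10 genes passed (edgeR), where 4.1% of all genes did (0.846% higher and 3.26% lower). Of the 10, FAS, BIRC2 and BIRC3 then had an unadjusted p under 0.05 (0.019, 0.038 and 0.0030), and DESeq2 called 1, beside 9.72% of all genes.

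With SY200 alone, TNFRSF10D passed at 12 h (1.69 ± 0.37, edgeR, adjusted p = 0.027), where 2.43% of all genes did (1.3% higher and 1.14% lower), but not without MDA-MD-231 Parental or either SY200 library at 12 h (adjusted p up to 0.18), with scaling to mitochondrial mRNAs (1.29, adjusted p = 0.052) or with DMSO alone (1.74, adjusted p = 0.13). At 3 and 6 h of SY200, 0 of 10 genes passed, where 0.423% and 0.264% of all genes did (0.159% and 0.206% higher, 0.264% and 0.0582% lower). BIRC3, FAS and TNFRSF10D had an unadjusted p under 0.05 at 3 h (0.0011, 0.023 and 0.019), and BIRC3 and TNFRSF10D at 6 h (0.042 and 0.0016). DESeq2 called 1 gene at 3 h and 0 at 6 h, where it called 2.06% and 1.64% of all genes. Between 12 and 3 h of SY200, 0 of 10 passed by edgeR or DESeq2, where 1.95% of all genes did by edgeR, with BIRC2 at an unadjusted p of 0.010.

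Against the single agents at matched times, SY200/V50 was lower than SY200 for 6 of the 10 genes, where 46% of all genes differed and 22.2% were lower. These were FAS (-0.91 ± 0.23), BIRC6 (-0.74 ± 0.17), XIAP (-0.73 ± 0.15), BIRC3 (-0.59 ± 0.19), CASP8 (-0.47 ± 0.13) and BIRC2 (-0.42 ± 0.11), with edgeR adjusted p of 0.00096 to 0.018. The BIRC3 difference was lost without MDA-MD-231 SY200 at 3 h, MDA-MD-231 SY200/V50 at 12 h or MDA-MD-468 SY200/V50 at 6 h (adjusted p up to 0.059). SY200/V50 was lower than V50 for 3 of the 10, where 19.9% of all genes differed, 7.52% higher and 12.4% lower: BIRC3 (-0.60 ± 0.19), XIAP (-0.52 ± 0.15) and CASP8 (-0.43 ± 0.13), with adjusted p of 0.034, 0.023 and 0.028. FAS did not pass that comparison (-0.28 ± 0.23, adjusted p = 0.41), nor did CFLAR (-0.03 ± 0.16, adjusted p = 0.91). Each of these 3 calls against V50 was lost without any 1 of several libraries of the contrast. For BIRC3 these were all 3 MDA-MD-231 V50, all 3 MDA-MD-231 SY200/V50, MDA-MD-468 V50 at 3 h and MDA-MD-468 SY200/V50 at 3 and 6 h. For CASP8 they were MDA-MD-231 V50 at 3 and 6 h, MDA-MD-231 SY200/V50 at 3 and 12 h, MDA-MD-468 V50 at 6 h and MDA-MD-468 SY200/V50 at 3 and 6 h. For XIAP they were MDA-MD-231 SY200/V50 at 3 and 12 h, all 3 MDA-MD-468 V50 and MDA-MD-468 SY200/V50 at 6 h. The highest adjusted p were 0.11, 0.10 and 0.087.

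Set against the sum of the single effects on the log2 scale, the combination differed for TNFRSF10D alone (-1.53 ± 0.39, edgeR, adjusted p = 0.032), where 5.04% of all genes differed. Its level with SY200/V50 was thus below what adding the 2 single rises would give. The call was lost without any library other than MDA-MD-231 V50 at 3 and 6 h, MDA-MD-231 SY200/V50 at 12 h, both MDA-MD-468 controls, MDA-MD-468 SY200 at 6 h, MDA-MD-468 V50 at 12 h and MDA-MD-468 SY200/V50 at 3 and 12 h (TNFRSF10D at -1.81 to -1.19, adjusted p up to 0.080). XIAP was at -0.62 ± 0.23 (adjusted p = 0.11).

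The difference of an effect between the lines was tested for each treatment, and 0 of the 10 genes and 0 of all genes passed with edgeR (0% for each treatment). For SY200/V50, 3009 genes had an unadjusted p under 0.05, and DESeq2 called 423 genes, TNFRSF10A and TNFRSF10B among them. Of the 10 genes, TNFRSF10A (-1.85 ± 0.38, lower in MDA-MD-468), TNFRSF10B (-0.92 ± 0.22) and TNFRSF10D (-1.28 ± 0.47) had unadjusted p of 0.00020, 0.00084 and 0.016 for SY200/V50, and adjusted p of 0.078, 0.098 and 0.21 (edgeR). For SY200, BIRC6, TNFRSF10D and XIAP had an unadjusted p under 0.05 (0.010, 0.0065 and 0.0031), beside 1048 of all genes, and DESeq2 called 0 of the 10. For V50, TNFRSF10A, TNFRSF10B, TNFRSF10D and BIRC3 had one (0.038, 0.048, 0.046 and 0.014), beside 1873 of all genes, and DESeq2 called 0 of the 10.

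In the knockout part, TNFRSF10D and TNFRSF10B had more CPM in every knockout library than in either empty vector library, and passed the test in CDK9 KO and CDK7/9 KO. TNFRSF10D had 81.9 and 62.2 CPM in the empty vector libraries at 72 and 96 h, 131 and 132 CPM in CDK9 KO, and 141 and 148 CPM in CDK7/9 KO. It had 104 and 98.9 CPM in CDK1 KO and 82.6 and 91.6 CPM in CDK7 KO. TNFRSF10B had 199 and 139 CPM with the empty vector, 272 and 269 CPM in CDK9 KO, 274 and 263 CPM in CDK7/9 KO, 233 and 230.3 CPM in CDK1 KO and 211 and 209 CPM in CDK7 KO. The Parental library at 0 h had 94.1 CPM of TNFRSF10D and 230.2 CPM of TNFRSF10B, under both libraries of CDK1 KO, CDK9 KO and CDK7/9 KO and above both of CDK7 KO. Whether the CDK9 knockouts differed from the CDK1 or CDK7 knockouts was not tested.

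In CDK9 KO, 2 of the 10 genes passed against the empty vector, where 8.16% of all genes did: TNFRSF10D rose by 0.87 ± 0.13 and TNFRSF10B by 0.69 ± 0.13 (edgeR, adjusted p = 0.0075 and 0.015). In CDK7/9 KO, 3 of the 10 passed, where 11.3% of all genes did: TNFRSF10D rose by 1.01 ± 0.13, TNFRSF10B rose by 0.68 ± 0.13 and BIRC3 fell by 0.62 ± 0.17 (adjusted p = 0.0039, 0.013 and 0.046). In CDK1 KO and CDK7 KO 0 of the 10 passed (edgeR), where 0.352% and 0.0238% of all genes did. TNFRSF10B, TNFRSF10D, BIRC3 and CFLAR had an unadjusted p under 0.05 in CDK1 KO (edgeR, 0.0035, 0.0022, 0.0014 and 0.0065), each higher than with the empty vector. In CDK7 KO, TNFRSF10A, TNFRSF10B, TNFRSF10D, BIRC3 and BIRC6 did (0.023, 0.027, 0.0496, 0.00072 and 0.0076). There BIRC3 was lower than with the empty vector (-0.81), while TNFRSF10B, TNFRSF10D and BIRC6 were higher. DESeq2 called 3 of the 10 in CDK1 KO and 1 in CDK7 KO, where it called 2.45% and 1.21% of all genes.

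The 13 mitochondrially encoded mRNAs were also set against the empty vector. Their median log2 changes were 0.42, 0.40, 0.92 and 0.86 in CDK1, CDK7, CDK9 and CDK7/9 KO. Of the 13, 10 rose in CDK9 KO and 10 in CDK7/9 KO, where 4.34% and 5.72% of all genes did. Their share of all counts was 3.77% with the empty vector at 72 h and lower at 96 h, but 5.05% in the Parental library. That was near the 5.04% and 5.98% of CDK9 KO and the 5.38% and 5.41% of CDK7/9 KO. Scaled to these mRNAs, TNFRSF10D was at 0.08 ± 0.20 in CDK9 KO and 0.23 ± 0.20 in CDK7/9 KO (edgeR, adjusted p = 0.74 and 0.31). TNFRSF10B was at -0.11 ± 0.19 and -0.10 ± 0.19 (adjusted p = 0.61 and 0.64), so none of these 4 calls held. On that scale 6 of the 10 genes passed in CDK9 KO, all lower, where 68% of all genes passed (0.399% higher and 67.6% lower), and 7 in CDK7/9 KO, all lower, where 66.4% did (0.465% higher and 65.9% lower). BIRC3 was among those lower in both (-1.15 ± 0.31 and -1.46 ± 0.31, adjusted p = 0.0075 and 0.0043).

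The calls also turn on single libraries. A fit without 1 library leaves its genotype with 1, so the sizes of the changes are given. Without empty vector at 72 h, more of the 10 genes and of all genes passed in CDK9 KO and CDK7/9 KO. Without 1 library at a time, TNFRSF10D ran from 0.66 to 1.08 in CDK9 KO and from 0.80 to 1.21 in CDK7/9 KO. TNFRSF10B ran from 0.45 to 0.92 and from 0.44 to 0.91. The lowest of these values came without empty vector at 96 h. The TNFRSF10B call in CDK9 KO was lost without either CDK9 KO library, and that of TNFRSF10D without CDK9 KO at 96 h. The CDK7/9 KO calls of these 2 genes were lost without either CDK7/9 KO library. The BIRC3 call in CDK7/9 KO was lost without any library other than empty vector at 72 h (adjusted p up to 0.41).

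BIRC3 varied more than any other of the 10 genes in the knockout part. It had 15.2 CPM in the Parental library, 37.7 and 69.0 CPM with the empty vector, 74.8 and 97.0 CPM in CDK1 KO, 27.9 and 31.3 CPM in CDK7 KO, 39.98 and 45.0 CPM in CDK9 KO and 34.0 and 33.5 CPM in CDK7/9 KO. The Parental library was the lowest, and the 2 empty vector values were further apart than those of any knockout. The ratio of BIRC2 to BIRC3 tags was 5.54 in the Parental library, 1.97 and 1.67 with the empty vector and 1.20 and 0.956 in CDK1 KO. CFLAR had 43.7 and 43.6 CPM with the empty vector, 52.1 and 57.8 CPM in CDK1 KO, 52.2 and 55.9 CPM in CDK9 KO and 54.4 and 50.6 CPM in CDK7/9 KO. No adjusted p of CFLAR was under 0.05 there (edgeR, TMM scaling). Scaled to mitochondrial mRNAs, CFLAR passed in CDK7/9 KO, below the empty vector. FAS (4.30 to 6.68 CPM), CASP8 (25.99 to 35.8 CPM) and XIAP (81.0 to 91.5 CPM) lay in narrow ranges over the 11 libraries.

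**Figure D4:**
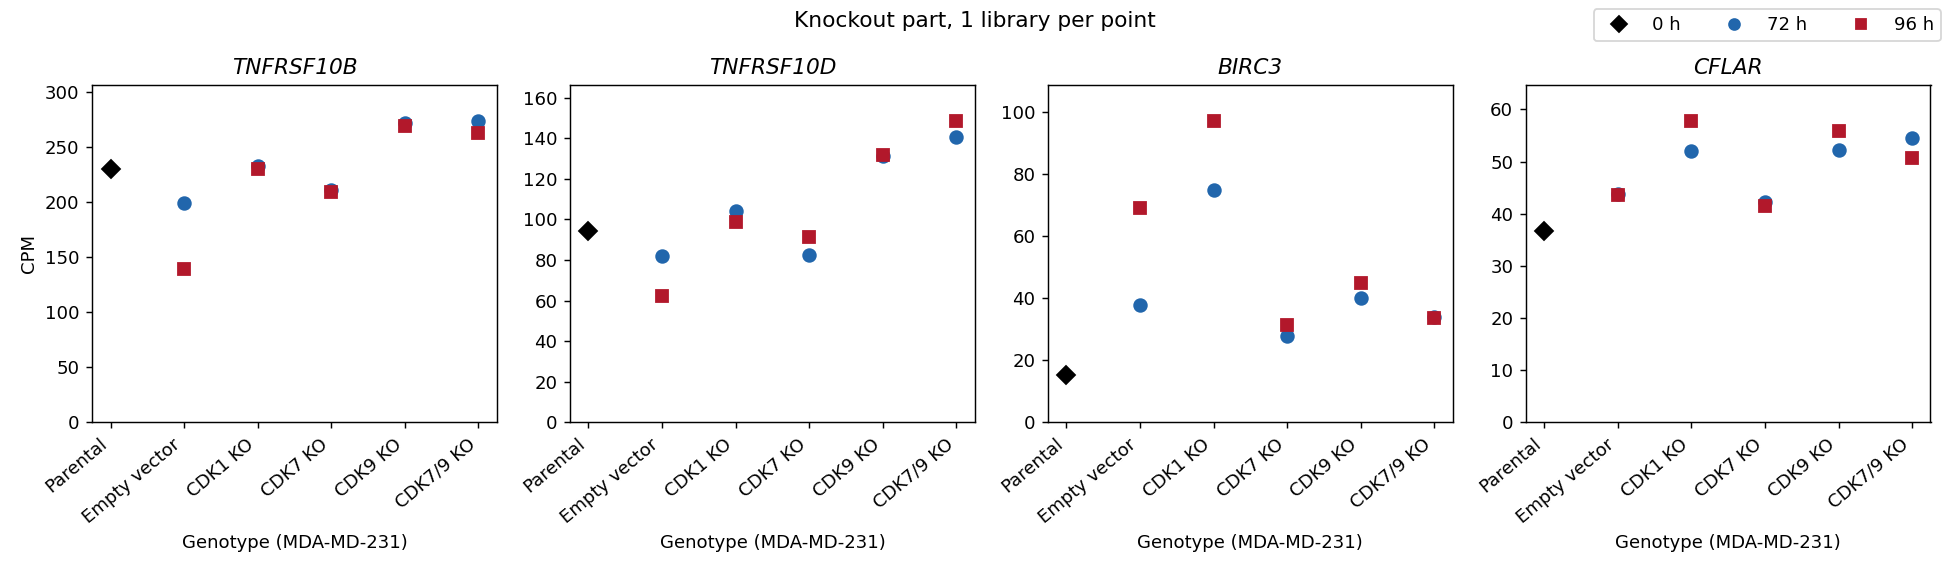
CPM (y axis, from 0) of TNFRSF10B, TNFRSF10D, BIRC3 and CFLAR in the 11 MDA-MD-231 knockout libraries by genotype (x axis), 1 library a point, with time shown by colour and shape. The CDK9 KO and CDK7/9 KO points of TNFRSF10D, 131 to 148 CPM, lie above the empty vector points of 81.9 and 62.2 CPM, and the 2 empty vector points of BIRC3 are 37.7 and 69.0 CPM.

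Around these 10 genes, the pathway was given by 8 lists of other genes. With SY200 as a mean over time, 0 genes of the 8 lists passed (edgeR) and 10 had an unadjusted p under 0.05. DESeq2 called 3 of them, DFFB, DIABLO and TRAF5. With SY200/V50 the adaptors and signalling complex list had 2 higher and 9 lower of 16, where 24% of all genes were higher and 24.2% lower, with a median log2 change of -0.46 beside 0.09 over all genes. FADD, the adaptor that joins FAS and the TRAIL receptors to caspase-8, fell by 2.97 ± 0.29 (adjusted p = 9.3e-07), a 7.83-fold lower level. FADD had 39.9 and 52.5 CPM in the MDA-MD-231 controls and 10.8, 3.33 and 1.85 CPM at 3, 6 and 12 h of SY200/V50, and 48.3 and 60.0 CPM against 8.94, 7.89 and 8.99 CPM in MDA-MD-468. With V50 it was low at 3 h (13.03 and 15.1 CPM in the 2 lines) and at 45.6 and 52.8 CPM at 12 h. TRAF2, which recruits cIAP1 and cIAP2 to the receptor complex, fell by 1.46 ± 0.18, OTULIN, a deubiquitinase of linear chains, by 1.37 ± 0.16, and the kinase gene MAP3K7 by 0.54 ± 0.12.

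Among the other receptors and decoys, 2 of 8 fell with SY200/V50, close to the 24.2% of all genes: TNFRSF1A, the main tumour necrosis factor receptor, by 2.32 ± 0.30 and TNFRSF12A, the TWEAK receptor, by 1.29 ± 0.16. Among ligands 2 of 6 rose, where 24% of all genes did, LTA (lymphotoxin alpha) by 3.43 ± 0.56 and TNFSF12 (TWEAK) by 1.06 ± 0.23, but LTA was at most 2.31 CPM in any of the 22 libraries. Among the other caspases and death effectors, APAF1, which forms the apoptosome (-1.35 ± 0.21), and DFFB, a nuclease (-1.08 ± 0.20), were lower, and CYCS, cytochrome c, higher (0.67 ± 0.10). Of all genes 24.2% were lower and 24% higher. DIABLO, which encodes SMAC, the mitochondrial antagonist of XIAP, rose by 0.87 ± 0.21. It was the 1 of 4 IAP antagonists that passed, close to the 24% of all genes that were higher. BIRC5 (survivin), the 1 tested gene of the other IAP family list, rose by 0.54 ± 0.09. Of 4 other blockers, PEA15 (0.56 ± 0.16) and FAIM2 (1.66 ± 0.47) rose, where 24% of all genes did. Of the rises named from these lists, only that of LTA passed with scaling to mitochondrial mRNAs (2.06, edgeR, adjusted p = 0.0030), where TNFSF12, CYCS, DIABLO, BIRC5 and PEA15 were below 0. The FAIM2 call was lost without SY200/V50 at 3 or 6 h or DMSO of MDA-MD-468 (adjusted p up to 0.95), and that of PEA15 with DMSO alone (adjusted p = 0.093).

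The NF-kB feedback list, inhibitors and subunits whose genes NF-kB itself drives, had 4 of 8 lower, where 24.2% of all genes were, with a median of -0.74. NFKBIE fell by 2.14 ± 0.16, NFKBIA by 1.29 ± 0.22, REL by 1.27 ± 0.46 and TNFAIP3, which is also in the adaptor list, by 1 ± 0.27 (edgeR, adjusted p = 1.1e-07, 0.00014, 0.030 and 0.0060). Of these, REL was lost without either MDA-MD-468 control, MDA-MD-231 DMSO or any MDA-MD-231 SY200/V50 library (adjusted p up to 0.094), and REL and TNFAIP3 with DMSO alone (adjusted p = 0.057 and 0.21). With V50 alone as a mean over time 1 of these 8 fell, where 11.9% of all genes did, NFKBIE by 0.98 ± 0.16. Between 12 h and 3 h of V50, 3 of the 8 were higher and 0 lower, where 7.97% of all genes were higher. In CDK7/9 KO, where BIRC3 was lower than with the empty vector, 3 of the 8 fell, where 5.62% of all genes did: NFKBIE (-0.65 ± 0.12), TNFAIP3 (-0.73 ± 0.16) and TNIP1 (-0.40 ± 0.09), with adjusted p of 0.011, 0.020 and 0.025. All 3 were lost without either CDK7/9 KO library, and TNIP1 also without CDK1 KO at 72 h or either CDK7 KO library (adjusted p up to 0.17, 0.17 and 0.24). Without empty vector at 72 h they were at -0.78, -0.83 and -0.37, and without that at 96 h at -0.53, -0.63 and -0.46, and passed in each. In CDK1 KO, TNFAIP3 was the 1 of 8 that passed, and it rose (0.97 ± 0.15, adjusted p = 0.026), where 0.322% of all genes did. That call was lost without any 1 of the 8 knockout libraries (adjusted p up to 0.67) and with scaling to mitochondrial mRNAs (0.60, adjusted p = 0.21), and held without either empty vector library (0.86 and 1.05). In CDK7 KO, where BIRC3 was also below the empty vector at each time, 0 of the 8 passed, where 0.0238% of all genes did. In CDK9 KO 0 of the 8 passed, where 8.16% of all genes did. Whether the genes of this list and BIRC3 share a cause was not tested.

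**Figure D5:**
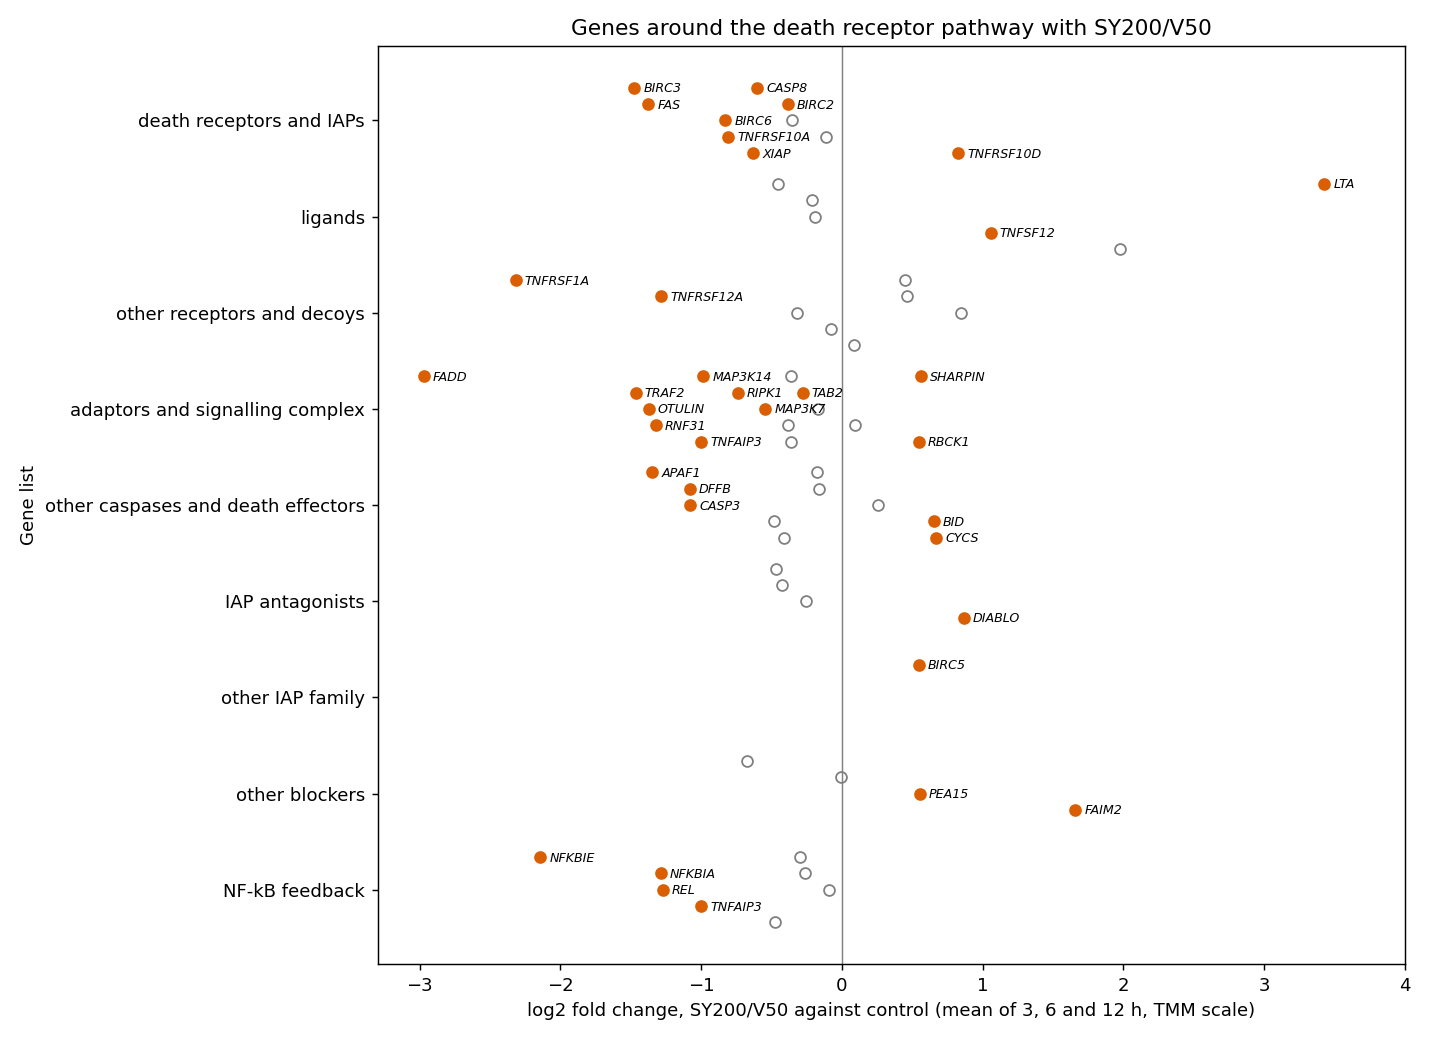
Log2 fold change with SY200/V50 against control (x axis, mean of 3, 6 and 12 h, TMM scale) of the 10 genes and of the genes of the 8 pathway lists reported here (rows; vertical offsets within a row only separate points); filled, named points have an edgeR adjusted p under 0.05. FADD at -2.97 and TNFRSF1A at -2.32 lie furthest to the left and LTA at 3.43 furthest to the right.

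For each of the 10 genes, the most similar genes over the 22 inhibitor libraries were found by Pearson r of log2 CPM centred within each line, among 9781 genes with a mean of at least 10 CPM. These values describe libraries that share treatments and times, and carry no test. BIRC6 was most like KIAA1671 (r = 0.949) and RANBP2 (0.922), FAS like UBQLN2 (0.943) and SNX27 (0.939), CASP8 like MSH6 (0.934) and CANT1 (0.931), and TNFRSF10A like TMEM201 (0.929) and TAF1A (0.922). XIAP was most like MED13 (0.927) and SECISBP2L (0.921), and BIRC2 like PYGO2 (0.912) and DEDD2 (0.911). BIRC3 (IRS1 0.863, HMGA2 0.855), CFLAR (CENPE 0.863, DNA2 0.833), TNFRSF10D (PLPBP 0.852, UBE3B 0.842) and TNFRSF10B (UPF1 0.847, MTFMT 0.821) had less close matches. Among the 10 themselves, FAS and BIRC3 had r = 0.765, and FAS and BIRC6 r = 0.760, whereas FAS and TNFRSF10D had r = -0.06.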

How the data were processed

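RNA was measured as 3' tags in 33 libraries. The authors deposited raw read counts per gene, unnormalized. Per the submitters' processing notes, reads were checked with FastQC and aligned to GRCh38 with STAR 2.7.10a. The counting tool, its annotation and strand setting were not given in the sources used here, nor was whether molecular identifiers were read. Rows are named by gene symbol, and 698 by Ensembl ID only. Gene positions are from GENCODE 29 and promoter windows from RefSeq.

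From these counts, low genes were removed with filterByExpr (minimum count 10, minimum total 15), libraries scaled with TMM, and edgeR 4.0.16 quasi-likelihood tests run across all genes under R 4.3.3 (limma 3.58.1), with Benjamini-Hochberg adjustment and a threshold of 0.05. The inhibitor model had cell line as a block and 10 conditions (22 libraries, 11 residual degrees of freedom), and a line model had 8 residual degrees of freedom. In the inhibitor part the replicate number, set here and not in the labels, stands for the cell line, so there is no pairing beyond that block. The knockout model had time as a block and left the Parental library out (10 libraries, 4 residual degrees of freedom). The 2 parts were scaled separately, so levels are not compared between them. In the inhibitor model p-values measure the spread between the lines in their response, together with that between the DMSO and Parental libraries. In the knockout model they measure the spread between the times in the genotypes' changes. Nothing in the labels says that libraries of a line came from separate cultures, so spread within a line may be technical. The DMSO and Parental libraries of a line differed beyond counting error (chi-square over its degrees of freedom, 44.5 and 27.5). Scripts were tested on simulated data.

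Named genes were the 10 members in every comparison, up to 4 genes a pathway list with the smallest adjusted p with SY200/V50, the 2 most similar genes of each member, and CDK1, CDK7 and CDK9. Genes of the pathway lists named for SY200, V50 alone or a knockout were chosen after their values were seen. A gene of these lists is not reported here. The members and lists were chosen with earlier results of these data known. Alternatives were DESeq2 1.42.0, its size factors in edgeR, scaling to mitochondrial mRNAs, no filter, DMSO alone as control, no block and leaving out each library. Scaling the knockouts to mitochondrial mRNAs and leaving out libraries for the pathway genes were chosen after seeing the data.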

Additional observations from a re-analysis of the deposited data

How the results depend on the processing

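Counts of the 10 genes past the threshold changed with the scaling. Scaled to mitochondrial mRNAs, the count was 7 with SY200, 9 with V50 and 9 with SY200/V50 as means over time. Of all genes 28%, 75.5% and 83.7% passed there, and shares of all genes follow in brackets. The count was 3 at 3 h of SY200 (8.95%). It was 9, 9 and 8 at 3, 6 and 12 h of V50 (41.1%, 58.5% and 63.6%). With SY200/V50 it was 9 at 3 h and 9 at 6 h (45.9% and 75.6%). For 12 h against 3 h it was 0 with V50 and 9 with SY200/V50 (10.7% and 56%). For SY200/V50 it was 10 against SY200 and 10 against V50 (72.2% and 34.9%). Of 220 gene results the sign differed there for 32, and for 9 of them one of the values had passed: BIRC2 with SY200 (-0.39), TNFRSF10B with V50 (-0.88), TNFRSF10D with SY200/V50 (-0.64), BIRC2, CASP8, TNFRSF10B and XIAP at 12 h of V50 (-0.91, -0.92, -0.68 and -0.86), TNFRSF10D at 12 h of SY200/V50 (-0.98) and TNFRSF10B for 12 h against 3 h of SY200/V50 (-1.04). Scaling the knockouts to these mRNAs, chosen after seeing the data, gave 6 of the 10 in CDK9 KO and 7 in CDK7/9 KO. Of all genes 68% and 66.4% passed there. The sign differed for 19 of 40 results, and 10 of these involved a call: CASP8, FAS, TNFRSF10A, TNFRSF10B and XIAP in CDK9 KO (-0.64, -0.82, -0.72, -0.11 and -0.81) and CASP8, CFLAR, TNFRSF10A, TNFRSF10B and XIAP in CDK7/9 KO (-0.70, -0.53, -0.55, -0.10 and -0.69). Signs also differed, always between values that did not pass, for 3 results with DESeq2, 3 with its size factors, 6 with DMSO alone, 5 with no filter, 8 with no replicate block and 117 of 5240 without 1 library. Over all genes, 375 (SY200), 4225 (V50) and 9114 (SY200/V50) passed as means over time, and 5299, 14273 and 15832 with this scaling. For SY200 the count over all genes was 973 with DESeq2, 227 with no filter and 28 with DMSO alone.

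The block for cell line, for which the replicate number stands, carries most calls. With no replicate block, the count of the 10 genes was 0 with SY200, 0 with V50 and 2 with SY200/V50 as means over time, 0 at 12 h of SY200, 0 at 6 and 0 at 12 h of V50, 0, 0 and 2 at 3, 6 and 12 h of SY200/V50, 0 for 12 h against 3 h of V50 and 0 for that of SY200/V50, 1 for SY200/V50 against SY200, 0 against V50 and 0 against the sum of the single effects. Over all genes, 0, 103 and 2364 passed as means over time. At 12 h of SY200/V50 13.2% of all genes passed, and 10.9% for SY200/V50 against SY200. The lines differ in level, and without the block that difference enters the spread by construction.

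Shares of all genes that passed are in brackets. DESeq2 gave 1 gene at 3 h and 2 at 12 h of SY200 (2.06% and 5.63%) and 1 at 3 h of V50 (9.72%). It gave 2 for the difference between lines with SY200/V50 (2.24%), 3 in CDK1 KO (2.45%) and 1 in CDK7 KO (1.21%). With no filter there were 0 and 1 for 12 h against 3 h of V50 and SY200/V50 (4.65% and 6.65%). Then 1 passed for SY200/V50 against V50 (7.14%), 3 in CDK1 KO (5.12%) and 2 in CDK7 KO (2.93%). With DMSO alone as control there were 0 with SY200 as a mean (0.149%) and 0 at 12 h of SY200 (0.106%). In that setting 5 passed at 12 h of SY200/V50 (46.5%) and 0 against the sum (0.675%). The cause of these shifts was not tested. DESeq2's size factors moved no count by over 1.5 times.

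Leaving out 1 library at a time gave 0 to 2 of the 10 genes with SY200, 2 to 4 with V50 and 6 to 9 with SY200/V50 as means, 0 to 0, 0 to 1 and 0 to 1 at 3, 6 and 12 h of SY200, 0 to 1, 0 to 3 and 0 to 2 of V50, and 0 to 1, 1 to 6 and 6 to 8 of SY200/V50. It gave 0 to 0, 0 to 1 and 0 to 3 for 12 h against 3 h of SY200, V50 and SY200/V50, 5 to 7 for SY200/V50 against SY200, 0 to 4 against V50, 0 to 2 against the sum, 4 to 8 between the lines' controls, and 0 to 0, 0 to 0 and 0 to 2 for the difference of effects between lines. In the knockouts the counts of the 10 genes and of all genes both moved widely, and sizes are given above. Where a condition was left with 1 library, that library was assumed to vary like the others. FAS in MDA-MD-468, at 6 to 62 reads, is the gene most limited by depth.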
